A study of Mus musculus with 8 samples.

Results

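The chromatin of wild-type macrophages was compared after 2 h of lipopolysaccharide (LPS) and without it. LPS is a cell-wall lipid of Gram-negative bacteria that cells of the immune system sense as a sign of infection. Of the 8 libraries of the study, the 4 wild-type (WT) libraries carry the comparison. They are 2 libraries of WT bone marrow-derived macrophages treated with 0.3 ng/ml E. coli LPS, and 2 of WT macrophages left untreated. The other 4 libraries, 2 of Nfat5 KO macrophages with LPS and 2 of untreated Nfat5 KO macrophages, come from NFAT5-deficient mice. They had no part in calling regions gained, lost, wider or narrower in WT. Their peaks did enter the merge that set the region borders, and a further width fit took all 8 libraries. Bone marrow cells were grown for 7 days in medium with 25% conditioned medium of L929 cells, which secrete the macrophage growth factor M-CSF. The labels name neither the strain, age and sex of the mice nor the Nfat5 allele. The design text calls the 2 libraries of a group biological replicates, and nothing states whether the LPS and untreated libraries with a shared code came from 1 animal. P-values measure the spread between these libraries.

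ATAC-seq marks open chromatin as the places where a transposase can insert sequencing adapters. The data are 1 list of peak positions per library, with no height, score or read count. Peaks that overlapped by at least 1 base in any of the 8 lists were merged into 87260 regions, of which 77272 were called in at least 1 WT list. Regions called by both LPS lists and by neither untreated WT list counted as gained, and those called by both untreated lists and neither LPS list as lost. By this rule 3454 regions were gained (4.47% of the WT regions) and 4414 were lost (5.71%). The order of these counts depends on list length: with the lists cut to an equal 55506 peaks, 3899 were gained and 3384 lost. With 1 library left out, so that a single list decides on one side, up to 7510 were gained (without LPS 2) and up to 9910 lost (without untreated 2). A further 40765 regions were called in all 4 WT lists and gave a width in every library, measured as the bases covered by its peaks. The calls themselves chose the gained and lost regions, so their WT values are descriptions without a test. Sequencing depth is unknown, so a missing call can also be a peak below the caller's threshold.

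Macrophages sense LPS through the receptor TLR4, which signals to the nucleus through NF-kB, AP-1 and interferon regulatory factors. In resting macrophages most of their enhancers are already opened by lineage factors such as PU.1, with C/EBP and RUNX factors. Bacterial products then open a smaller set of additional enhancers near genes of the inflammatory response, while some enhancers of the resting state lose activity. Known LPS genes serve below only as a check of the treatment, and the account concerns the other genes around which regions appeared, disappeared or changed width.

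MicroRNA genes were among those with gained or lost regions nearby. MicroRNAs are short RNAs that repress messenger RNAs through pairing of their seed (bases 2 to 8). Of 963 listed mouse hairpins, 411 had a WT region within 5 kb. Of these, 19 (4.62%) had a gained region and 29 (7.06%) a lost one. These are shares of hairpins with at least 1 such region, and a hairpin can have several (666 pairs of region and hairpin). Of all WT regions 4.47% were gained and 5.71% lost, which are shares of single regions and not a like measure. Whether hairpins differ as a class was not tested. The hairpins named here were picked after their values were seen. The mature sequences below, from RefSeq on GRCm38.p6, are shown because neighbouring regions changed calls and because several share a seed. They are written 5′ to 3′ with the seed in capitals. The first 4 lie near gained regions, miR-146b also near a lost one, and the remaining 6 near lost regions.
mmu-miR-155-5p: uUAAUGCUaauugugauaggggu
mmu-miR-146b-5p: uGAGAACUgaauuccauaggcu
mmu-miR-203-3p: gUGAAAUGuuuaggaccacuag
mmu-miR-125b-5p: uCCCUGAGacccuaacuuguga
mmu-miR-125a-5p: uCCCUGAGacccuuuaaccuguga
mmu-let-7e-5p: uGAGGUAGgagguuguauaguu
mmu-miR-29b-3p: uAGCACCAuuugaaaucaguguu
mmu-miR-29c-3p: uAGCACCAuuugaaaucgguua
mmu-miR-34b-3p: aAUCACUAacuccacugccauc
mmu-miR-34c-3p: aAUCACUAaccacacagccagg

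Mir155, the precursor of an inflammation-induced microRNA that tunes macrophage activation, had 2 gained regions just downstream of its hairpin on chromosome 16. The wider one (84717937 to 84718970, 3.73 kb away) covered 1034 and 702 bases in the LPS libraries, against 0 and 0 in the untreated ones. The nearer one (84717237 to 84717546, 3.03 kb away) covered 274 and 310 bases with LPS, against 0 and 0 untreated. In the KO lists the wider region was called with 938 bases in 1 of the 2 LPS libraries and in no untreated library, and the nearer one in none. The nearest protein-coding gene to both is Mrpl39, a mitochondrial ribosomal protein gene. Of the 14 WT regions nearest to Mrpl39, 5 were gained and 0 lost. Of these 5, 1 overlapped Mrpl39 itself, and 0 were gained in the KO lists.

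Mir146b, a precursor known to restrain TLR signalling, had calls in both directions. A region 1.54 kb from the hairpin on chromosome 19 covered 349 and 299 bases with LPS, against 0 and 0 untreated, and was also gained in the KO lists, with 311 and 333 bases with LPS. Another, 0.877 kb away, covered 0 and 0 bases with LPS, against 202 and 203 untreated, and 0 and 0 with LPS against 304 and 300 untreated in the KO lists. Mir203 had a gained region 0.075 kb away on chromosome 12, with 440 and 430 bases with LPS, against 0 and 0 untreated. In the KO lists that region was called in 1 LPS library and in 1 untreated library.

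The seed CCCUGAG is shared by miR-125b-5p and miR-125a-5p, whose hairpins lie near regions of opposite direction. The region 3.65 kb from Mir125b-1 on chromosome 9 covered 336 and 257 bases with LPS, against 0 and 0 untreated. In the KO lists it covered 331 and 0 bases with LPS, against 0 and 0 untreated. The region near Mirlet7e and Mir125a on chromosome 17 covered 0 and 0 bases with LPS, against 213 and 296 untreated. The KO lists did not share this direction, with 0 and 197 bases with LPS, against 0 and 0 untreated. The seed AGCACCA is common to miR-29b-3p and miR-29c-3p. Their hairpins, Mir29b-2 and Mir29c, lie together on chromosome 1, and a region that starts 0.006 kb from Mir29c (195037641 to 195038257) covered 0 and 0 bases with LPS, against 617 and 600 untreated, while no KO list called it. The miR-34 pair shares AUCACUA, and its lost region covered 0 and 0 bases with LPS, against 184 and 245 untreated. No KO list called the miR-34 region. All of these microRNA values are from lists of peaks and say nothing of the amount of the RNA.

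The WT lists held 57691 and 55506 peaks with LPS, against 60117 and 59218 untreated. They covered 28.0 and 27.7 Mb with LPS, against 31.2 and 30.9 Mb untreated, and the median peak was 402 and 415 bases wide with LPS, against 437 and 434 untreated. Both LPS lists were lower than both untreated lists on each measure, with a two-sided exact permutation p of 0.333, the smallest that 2 libraries against 2 allow. Peaks on the X chromosome numbered 1759 and 1502 with LPS and 1763 and 1500 untreated, so the libraries numbered 1 resembled each other more than the other library of their treatment. Of 15 macrophage markers, 9 had a listed start site, and 2 of these 9 had a region over it in no WT list. Such a region was called in all 4 WT lists for 6 of the 9 (Cd68, Lyz2, Mertk, Fcgr1, Mpeg1 and Emilin2). Over all coding genes with a listed start site this was so for 8564 of 17492. The same held for 0 of 12 T and NK cell markers, 1 of 8 B cell markers (Cr2), 3 of 13 neutrophil markers (Camp, S100a8 and Mmp8), 2 of 10 dendritic cell markers (Bst2 and Dpp4), 0 of 9 mast cell markers, 1 of 11 erythroid and megakaryocyte markers (Pf4) and 1 of 9 stromal markers (Kitl). Neuronal markers had 1 of 14 (Syn1) and hepatocyte markers 0 of 12. The part of other cells in the results was not tested. In bulk chromatin, fewer cells with an open region and a less open region per cell cannot be told apart.

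Known LPS genes, looked at as a check of the treatment, carried changed calls or widths. At Clec4e, a receptor for mycobacterial glycolipid, a region on chromosome 6 covered 1070 and 1924 bases with LPS, against 0 and 0 untreated. At Tnf a region covered 958 and 419 bases with LPS, against 0 and 0 untreated. The region over Cxcl10 was called in all libraries and was wider with LPS, at 1043 and 785 bases, against 515 and 653 untreated. Nfkbia, the inhibitor that NF-kB induces in its own feedback, had a wider region over the gene, with 1160 and 1043 bases with LPS, against 790 and 823 untreated, and also a lost region 0.195 kb from the gene, with 0 and 0 bases with LPS, against 521 and 498 untreated. Il1b had 2 gained regions, and 1 of its 4 regions called in all 4 WT lists was wider with LPS. Il6 had 1 gained region, and 2 of its 2 such regions were wider. Neither gene had a lost or narrower region. Near Il1b and Il6, gained regions lay 16.6 and 92.6 kb away. The first covered 224 and 246 bases with LPS, against 0 and 0 untreated. The second covered 409 and 304 bases with LPS, against 0 and 0 untreated, and no KO list called either of these 2 regions. Over the list of early LPS genes 12.9% of 379 regions were gained and 5.01% lost, and over the late list 13.7% of 234 were gained and 3.42% lost. Interferon-response genes had 8.98% of 167 regions gained and 0.599% lost.

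Outside the known LPS genes, the 12 widest-ranked gained regions lay in or near Klhdc4, Zc3h12c, Ppargc1b, Ak5, Metap1, Phlpp1, Cdc37, Alcam, Syne1, Tmod3, Ptprt and Sdc4. Of the 12, the one with the most bases lay in Klhdc4 (chromosome 8, 121822162 to 121827676) and covered 4375 and 2846 bases with LPS, against 0 and 0 untreated. A region 0.950 kb from Zc3h12c, which encodes an RNA-degrading protein of the Regnase family, covered 1830 and 1114 bases with LPS, against 0 and 0 untreated. It was gained in the KO lists too, with 1756 and 859 bases with LPS, against 0 and 0 untreated.

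Ppargc1b, the gene of a coactivator of mitochondrial biogenesis, held a gained region (chromosome 18, 61383983 to 61385309) of 1327 and 1101 bases with LPS, against 0 and 0 untreated. In Ak5, an adenylate kinase gene, 1065 and 1252 bases were covered with LPS, against 0 and 0 untreated. A region 5.73 kb from Metap1, which encodes an enzyme that removes the first methionine of new proteins, covered 967 and 1045 bases with LPS, against 0 and 0 untreated. In all 3 regions both KO LPS libraries had a call, and of the untreated KO libraries only 1 had one, in Ppargc1b.

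Phlpp1, the gene of a phosphatase that acts on AKT, held a region of 909 and 1114 bases with LPS, against 0 and 0 untreated. A region 2.52 kb from Cdc37, which encodes the cochaperone that delivers kinases to Hsp90, covered 1069 and 884 bases with LPS, against 0 and 0 untreated. Alcam, the gene of a cell adhesion molecule, had 895 and 1008 bases with LPS, against 0 and 0 untreated. These 3 regions were called in both KO LPS libraries, and Alcam also in 1 untreated KO library, with 187 bases.

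Gained regions that the KO lists shared less lay in Syne1, Ptprt and Tmod3 and near Sdc4. Syne1 encodes a nesprin that ties the nucleus to the cytoskeleton, and its region covered 763 and 1609 bases with LPS, against 0 and 0 untreated. Ptprt, a receptor tyrosine phosphatase gene, had 1269 and 753 bases with LPS, against 0 and 0 untreated. No KO list called either region. Sdc4 encodes the cell-surface proteoglycan syndecan-4, and its region (chromosome 2, 164421902 to 164423510, 0.736 kb from the gene) covered 1609 and 703 bases with LPS, against 0 and 0 untreated, and 402 and 0 bases in the KO LPS libraries. The Tmod3 region, in the gene of a cap of actin filament ends, covered 882 and 944 bases with LPS, against 0 and 0 untreated, and was called in 1 KO LPS library and 1 untreated KO library.

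**Figure D1:**
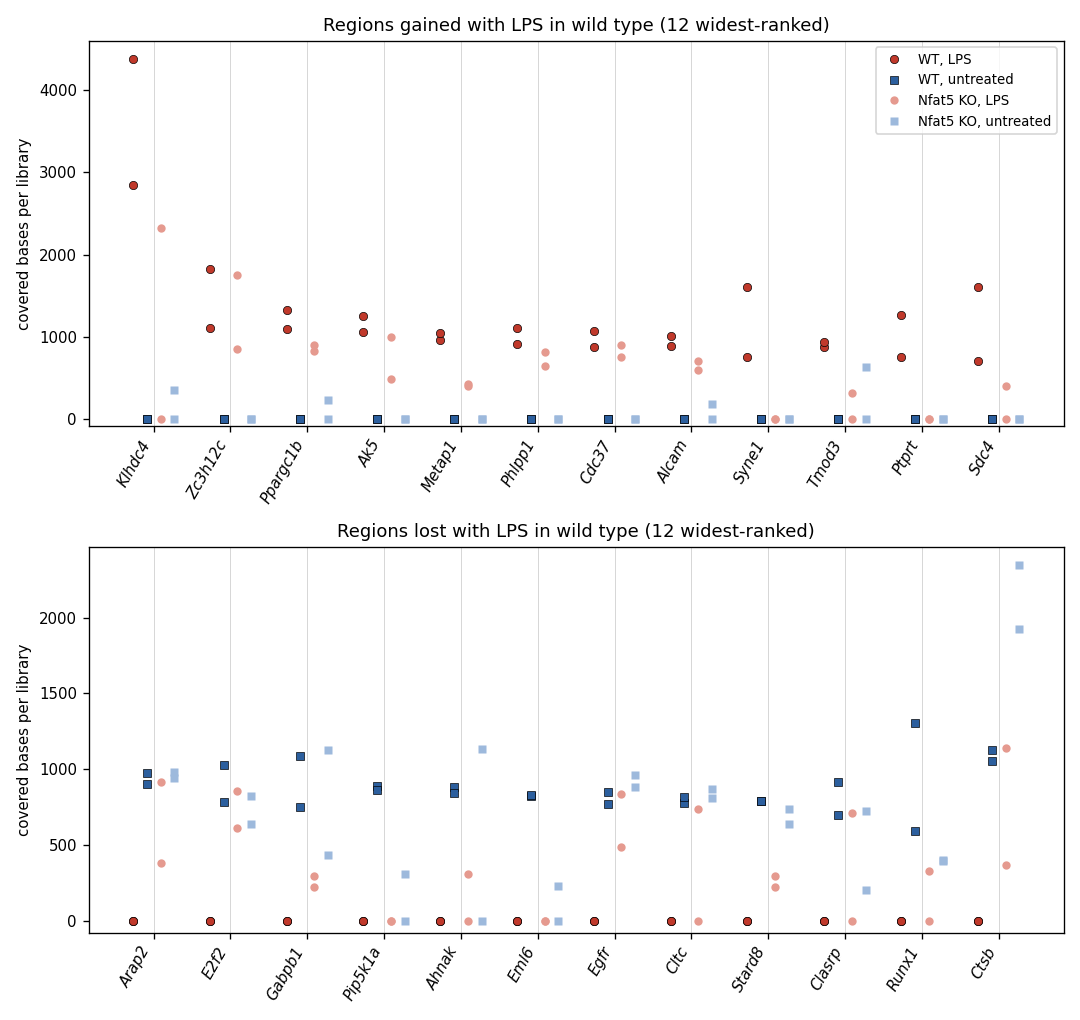
Bases covered by peaks (vertical axis) in each of the 8 libraries for the 12 widest-ranked gained regions (top) and the 12 widest-ranked lost regions (bottom), 1 gene per column, with 1 point per library. WT points at 0 follow from the rule; the paler Nfat5 KO points had no part in it and show, for example, Zc3h12c at 1756 and 859 bases with LPS and 0 untreated, and Syne1 at 0 in every KO library.

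Of the 12 widest-ranked lost regions, 10 overlapped the gene they were assigned to. Arap2, the gene of an Arf GTPase-activating protein, held a region (chromosome 5, 62762427 to 62763409) with 0 and 0 bases with LPS, against 973 and 901 untreated. The KO lists called it in every library, with 912 and 377 bases with LPS and 942 and 980 untreated. Gabpb1 encodes a subunit of the ETS factor GABP, and its region had 0 and 0 bases with LPS, against 749 and 1085 untreated; in the KO lists it was narrower with LPS, at 221 and 293 bases, against 1128 and 430 untreated.

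In Ctsb, the gene of the lysosomal protease cathepsin B, a region on chromosome 14 (63144173 to 63146730) had 0 and 0 bases with LPS, against 1126 and 1052 untreated, and in the KO lists 365 and 1140 bases with LPS, against 1924 and 2349 untreated. In Runx1, the gene of a blood-lineage transcription factor, the lost region covered 0 and 0 bases with LPS, against 1302 and 592 untreated. Egfr, the receptor gene for epidermal growth factor, had 0 and 0 bases with LPS, against 767 and 852 untreated. The Egfr region was called in all 4 KO libraries, with 483 and 836 bases with LPS and 963 and 884 untreated.

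Lost regions with few or no KO calls lay near Pip5k1a and in Eml6. The Pip5k1a region, 4.51 kb from the gene of a kinase that makes a membrane phosphoinositide, had 0 and 0 bases with LPS, against 887 and 861 untreated, and in the KO lists only 1 untreated library called it, with 307 bases. The Eml6 region, in a gene of the microtubule-associated EMAP family, had 0 and 0 bases with LPS, against 822 and 830 untreated, and 231 bases in 1 untreated KO library. The other 5 of the 12 were in Ahnak, Cltc (the clathrin heavy chain gene), Clasrp and E2f2 and 0.606 kb from Stard8, with untreated values between 694 and 1029 bases.

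Few changes of call fell on gene start sites. A listed start site lay within 38 of the gained regions (1.10%) and 78 of the lost regions (1.77%), against 19.7% of regions called in all 4 WT lists and 11.2% of all WT regions; start sites are listed for 79.9% of the coding genes. Gained regions overlapped a gene body in 54.4% and lost regions in 53.2%, against 59.3% of all WT regions. A larger share of gained regions lay near standing open chromatin: 42.9% were within 5 kb of a region called in all 4 lists, against 27.2% of lost regions and 31.1% of all WT regions. Gained regions no more than 10 kb apart formed 26 groups of 3 or more, and lost regions 9. The only group of 4 lay in Ptprj, the gene of a receptor tyrosine phosphatase, on chromosome 2 between 90547474 and 90566223, and no KO pair of libraries gained any of its regions.

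Within 1 kb of start sites outside the known LPS genes, the widest-ranked gained regions were at Olr1, Septin11, Zfp811, Tbk1, Trim13, Cltrn, Ppfibp2 and Serpinb1b. Olr1, the gene of a scavenger receptor for oxidised LDL, had a region across its start (chromosome 6, 129506934 to 129507669) with 622 and 731 bases with LPS, against 0 and 0 untreated, and 383 and 632 in the KO LPS libraries, against 0 and 0 in untreated KO. Tbk1 encodes the kinase that activates interferon regulatory factor IRF3. A region 359 bases from its start covered 595 and 522 bases with LPS, against 0 and 0 untreated, and 314 and 255 bases in KO LPS against 0 and 0 in untreated KO. Trim13, an ubiquitin ligase gene, had 590 and 517 bases with LPS, against 0 and 0 untreated. Of these 8 regions, all but those of Cltrn and Serpinb1b were called in both KO LPS libraries, and none in an untreated KO library.

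The widest-ranked lost regions within 1 kb of a start were at E2f2, Slmap, Chmp2b, Pnma1, Hsd17b13, Ptprr, Rbm47 and Fndc11. E2f2, the gene of a cell-cycle transcription factor, had 0 and 0 bases with LPS, against 1029 and 780 untreated, in a region 77 bases from its start, while the KO lists called it at similar width in both treatments (609 and 853 bases with LPS, 821 and 636 untreated). The region across the start of Ptprr, a phosphatase gene that acts on MAP kinases, had 0 and 0 bases with LPS, against 545 and 567 untreated, and in KO 352 and 360 bases with LPS, against 856 and 893 untreated. Chmp2b, an ESCRT-III gene of membrane remodelling, had 0 and 0 bases with LPS, against 626 and 543 untreated.

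The promoters with a start inside a gained region could be read for sequence motifs, since RefSeq windows from 250 bases before to 50 bases after a start were at hand. They are 40 promoters of 38 genes, and 84 promoters of 79 genes had a start in a lost region. The 10-base NF-kB consensus, searched on both strands, was present in 8 of the 40 promoters with gained starts (20.0%), against 3 of 84 with lost starts (3.57%), 6.87% of promoters in regions called in all 4 lists and 6.27% of all 21263 promoters. Of the 8, 2 are alternative starts of 1 gene, Slc7a7, and overlap. Only exact fits to the NF-kB pattern counted, so a window without a match can still hold similar letters. The gained windows of Ifnb1 and H2-M2, for example, hold gggaaattcc and ggggaattcc and were counted as without a match. The AP-1 motif TGANTCA was in 12.5% of gained, 3.57% of lost and 6.99% of all promoters. The motif GGGCGG (GC box) was in 45.0% of gained and 47.6% of lost promoters, against 67.7% of those in regions called in all 4 lists and 46.2% of all promoters. The median number of CpG pairs in a window was 9 at gained, 10 at lost and 22 at all-list start sites. The other motifs, all read on both strands, were the interferon-response element ISRE (10 letters), C/EBP (TTGCNNAA), PU.1 (GAGGAAGT), ETS (CCGGAAGT, whose last 6 letters are those of PU.1), CRE (TGACGTCA), E-box (CACGTG), the TATAAA box and the CCAAT box. ISRE letters were in 3 of the 40 gained windows (7.50%), against 3.35% of all promoters, C/EBP in 3 (7.50%) against 10.2%, PU.1 in 1 (2.50%) against 3.13%, and E-box in 3 (7.50%) against 7.84%. The TATAAA box was in 7 (17.5%) against 12.6%, the CCAAT box in 12 (30.0%) against 38.2%, and ETS and CRE in none, against 5.15% and 2.23% of all promoters. These matches are descriptions of letters in the window.

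Stretches of 250 bases before the start are shown for 3 promoters with a gained start and an NF-kB match and for 1 of the lost ones. They were chosen after the values were seen, come from RefSeq on GRCm38.p6, are written 5′ to 3′ on the gene's strand, and carry the match in capitals (in Tnfrsf9 a pair of overlapping matches). Tnip1 lies on chr11:54962941-54963190, minus strand, Nox1 on chrX:134111855-134112104, minus strand, Tnfrsf9 on chr4:150927749-150927998, plus strand, and Hecw2 on chr1:54195035-54195284, minus strand.
Tnip1: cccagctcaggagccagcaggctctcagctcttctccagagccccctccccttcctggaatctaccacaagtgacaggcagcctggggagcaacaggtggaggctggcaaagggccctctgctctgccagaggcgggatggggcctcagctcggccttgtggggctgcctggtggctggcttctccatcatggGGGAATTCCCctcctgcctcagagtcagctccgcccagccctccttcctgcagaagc
Nox1: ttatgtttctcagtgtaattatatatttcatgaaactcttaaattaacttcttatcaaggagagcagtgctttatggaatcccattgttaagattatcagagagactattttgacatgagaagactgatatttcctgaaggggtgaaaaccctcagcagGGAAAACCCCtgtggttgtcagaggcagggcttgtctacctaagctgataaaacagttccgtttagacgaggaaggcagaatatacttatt
Tnfrsf9: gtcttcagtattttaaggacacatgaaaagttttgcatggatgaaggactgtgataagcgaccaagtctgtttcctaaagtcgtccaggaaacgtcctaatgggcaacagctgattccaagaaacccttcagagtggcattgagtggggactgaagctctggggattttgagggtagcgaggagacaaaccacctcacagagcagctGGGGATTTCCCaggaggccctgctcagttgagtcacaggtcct
Hecw2: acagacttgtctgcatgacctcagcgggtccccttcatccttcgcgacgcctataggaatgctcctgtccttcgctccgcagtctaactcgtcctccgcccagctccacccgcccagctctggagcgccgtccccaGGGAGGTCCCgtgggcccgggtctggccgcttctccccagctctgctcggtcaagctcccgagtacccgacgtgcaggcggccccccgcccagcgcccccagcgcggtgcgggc

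Tnip1 encodes a binding partner of A20 that restrains NF-kB signalling. The match shown begins 57 bases before the start, and the region at that start covered 434 and 482 bases with LPS, against 0 and 0 untreated. Nox1 encodes a superoxide-producing NADPH oxidase. Its match begins 91 bases before the start, in a region of 462 and 466 bases with LPS, against 0 and 0 untreated. Tnfrsf9 encodes the costimulatory receptor 4-1BB, and its region covered 514 and 368 bases with LPS, against 0 and 0 untreated. All 3 were called in both KO LPS libraries and in neither untreated KO library. Of the gained starts with an NF-kB match that are not printed, those of Slc7a7 and LOC115488765 had the same KO calls. Those of Il2ra and Liph did not. The Il2ra region covered 314 and 0 bases in KO LPS, against 194 and 0 in untreated KO. The Liph region covered 0 and 253 bases in KO LPS, against 0 and 178 in untreated KO. Hecw2, an ubiquitin ligase gene, had a lost region of 0 and 0 bases with LPS, against 448 and 376 untreated, which every KO library called.

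**Figure D2:**
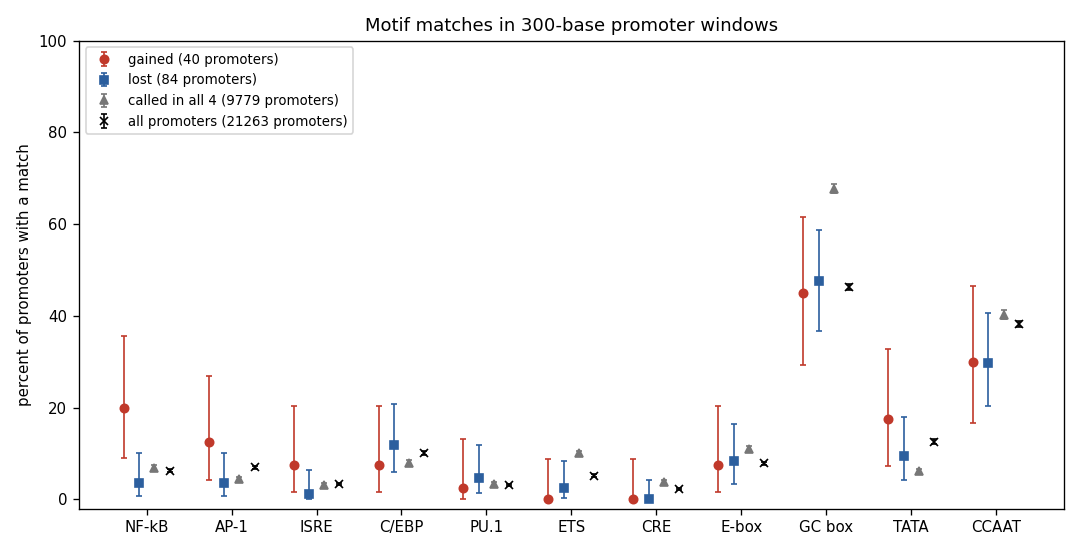
Share of 300-base promoter windows with a match to each motif (vertical axis, percent) for windows whose start lies in a gained region (40), a lost region (84) or a region called in all 4 WT lists (9779), and for all promoters (21263). Bars are exact 95% binomial intervals, for counting error only; windows of 1 gene can overlap. NF-kB is at 20.0% in gained and 3.57% in lost windows.

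Some genes collected several gained regions and no lost one. At least 1 gained region was nearest to 2285 of the 16322 coding genes with a WT region (14.0%), and at least 1 lost region to 3108 (19.0%); 765 genes had both. Hivep3, the gene of a large zinc-finger factor that binds kB-like DNA, had 8 gained among its 35 regions. The widest of them covered 704 and 750 bases with LPS, against 0 and 0 untreated, and 3 of the 8 were gained in KO too. Itgb8, an integrin subunit gene whose product activates latent TGF-beta, had 7 of 30 gained, of which 1 overlapped the gene. Etv6, the gene of an ETS-family repressor, had 7 of 39 gained, all inside the gene, and none was gained in the KO lists.

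Ripk2, the kinase gene of the NOD receptor pathway, had 6 of 24 regions gained. The widest of them by WT bases lay 35.0 kb away, with 563 and 520 bases with LPS, against 0 and 0 untreated. Frmd4b had 6 of 29 gained, Lox (the collagen cross-linking enzyme lysyl oxidase) 5 of 9, and Lcp1 (L-plastin, which bundles actin in leukocytes) 5 of 14. In the lost direction Plcb1, a phospholipase C gene, had 8 of 39 regions lost and none gained, Arap2 6 of 16, and Bach2, the gene of a transcriptional repressor, 6 of 31. Zmynd8 (a chromatin reader gene), St6galnac3, Vps13d and Zfp978 had 5 each. Longer genes hold more regions, so these counts stand beside their totals.

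Among the pathway lists outside the known LPS genes, several had shares of gained regions above the 4.47% of all WT regions. They included TGF-beta and BMP signalling, solute carriers, and proteases, matrix and adhesion. Actin and podosome genes (6.40%) and PI3K, AKT and mTOR genes (5.99%) were also above it. Other lists lay below it, such as the mitochondrial list (2.59%). The exact binomial intervals were 4.85% to 12.1% for TGF-beta and BMP genes and 5.11% to 11.5% for solute carriers. That of proteases, matrix and adhesion, 4.466% to 10.9%, held the 4.47%. These intervals cover counting error only and take regions as separate units, although a gene can have several. The lists were written with earlier results of these data known, and whether a list differs from all regions was not tested. In the TGF-beta and BMP list 19 of 239 regions were gained (7.95%), near 12 of 32 genes, and 10 were lost (4.18%), near 8 genes. Skil, whose product represses SMAD activity, had 552 and 698 bases with LPS, against 0 and 0 untreated, and 661 and 566 in KO LPS against 0 and 0 in untreated KO. The receptor gene Acvr1 had 668 and 422 bases with LPS, against 0 and 0 untreated, in a region no KO list called. Tgfbr2, a TGF-beta receptor gene, held both a gained region (438 and 369 bases with LPS, against 0 and 0 untreated) and a lost one (0 and 0 bases with LPS, against 421 and 420 untreated).

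Solute carrier genes, which move nutrients and ions across membranes, had 24 of 305 regions gained (7.87%) and 8 lost (2.62%). Slc7a8, an amino acid carrier gene, had 587 and 593 bases with LPS, against 0 and 0 untreated. Slc38a2, a glutamine carrier gene, had 559 and 520 bases with LPS, against 0 and 0 untreated. Slc9a9, a sodium-proton exchanger gene, had a lost region (0 and 0 bases with LPS, against 569 and 482 untreated) that all 4 KO libraries called at 641 to 730 bases. Of the list's genes 10 had gained regions alone, 1 lost regions alone and 5 both.

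The actin and podosome list, of genes that steer cell shape and movement, had 6.40% of 328 regions gained and 3.66% lost. It included a region near Marcks, an actin cross-linker gene, of 595 and 651 bases with LPS, against 0 and 0 untreated. Proteases, matrix and adhesion genes had 7.22% of 277 regions gained and 4.69% lost, with a gained region in Cd44, the hyaluronan receptor gene, of 450 and 447 bases with LPS, against 0 and 0 untreated.

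Transcription factor and chromatin lists lay nearer to the shares of all regions. Forkhead, Ikaros, ZEB and MYC-network genes had 6.12% of 376 regions gained and 4.52% lost; Ikzf1 had 635 and 568 bases with LPS, against 0 and 0 untreated, and Foxp1 had 595 and 565 bases with LPS, against 0 and 0 untreated, and both KO LPS libraries called both regions. ETS, RUNX and C/EBP genes had 5.42% gained and 5.08% lost, and among them Runx1, Runx2 and Runx3 each had a lost region. In Runx2 it covered 0 and 0 bases with LPS, against 498 and 500 untreated. The shares of the histone acetylation list (3.97% gained, 5.30% lost) and the histone and DNA methylation list (4.55% gained, 5.56% lost) were close to those of all regions. Kdm2b, a histone demethylase gene, had a lost region with 0 and 0 bases with LPS, against 716 and 340 untreated, also lost in KO (0 and 0 with LPS, against 832 and 400 untreated).

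Mitochondrial biogenesis and TCA cycle genes had 3 of 116 regions gained (2.59%) and 8 lost (6.90%), against 4.47% and 5.71% of all WT regions. The exact 95% intervals, 0.537% to 7.37% and 3.02% to 13.1%, hold both of those shares. Ppargc1b and Dnm1l, a mitochondrial fission gene, each held a gained one; in Dnm1l it covered 283 and 362 bases with LPS, against 0 and 0 untreated. In Mdh1, the cytosolic malate dehydrogenase gene, the lost region had 0 and 0 bases with LPS, against 478 and 187 untreated, and in Fh1, the fumarase gene, 0 and 0 bases with LPS, against 345 and 210 untreated. Iron-handling genes had 3.12% of 96 regions gained and 7.29% lost. Among these genes, a region 6 kb from Hamp, the gene of the iron hormone hepcidin, had 487 and 393 bases with LPS, against 0 and 0 untreated, while a region 25 kb from Cd163, the haemoglobin scavenger receptor gene, had 0 and 0 bases with LPS, against 496 and 285 untreated. The Wnt list had 2.75% of 182 regions gained and 4.95% lost.

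Genes of second messengers and mediators were mixed. The cAMP list had 17 of 387 regions gained (4.39%) and 26 lost (6.72%), with Pde4b at 479 and 399 bases with LPS, against 0 and 0 untreated, and Pde7a at 0 and 0 bases with LPS, against 400 and 547 untreated. Both encode phosphodiesterases that break down cAMP. Among purinergic and lipid-mediator receptor genes 4.68% of 171 regions were gained and 4.68% lost. The gained ones included the adenosine receptor gene Adora2a, with 363 and 490 bases with LPS, against 0 and 0 untreated, and the lost ones the UDP receptor gene P2ry6, with 0 and 0 bases with LPS, against 636 and 604 untreated. In the lysosome and autophagy list, 4.35% of 253 regions were gained and 5.93% lost: the gained ones included Mitf and Tfec, and the lost ones Tfe3 and Ctsb. Macrophage marker genes had 2.73% of 110 regions gained and 7.27% lost, with Mertk, an uptake receptor gene for dying cells, at 0 and 0 bases with LPS, against 352 and 382 untreated in its lost region. Of the markers of other cells, fibroblast and stromal genes had 7 gained and 6 lost of 72 regions, T and NK cell genes 2 and 4 of 36, B cell genes 0 and 1 of 30, neutrophil genes 2 and 4 of 26 and dendritic cell genes 3 and 3 of 50. Mast cell genes had 0 gained and 1 lost of 17, erythroid and megakaryocyte genes 1 and 0 of 10, neuronal genes 1 and 8 of 98, and hepatocyte genes 0 and 6 of 27. Over all WT regions 4.47% were gained and 5.71% lost, and whether any marker list differs from that was not tested.

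**Figure D3:**
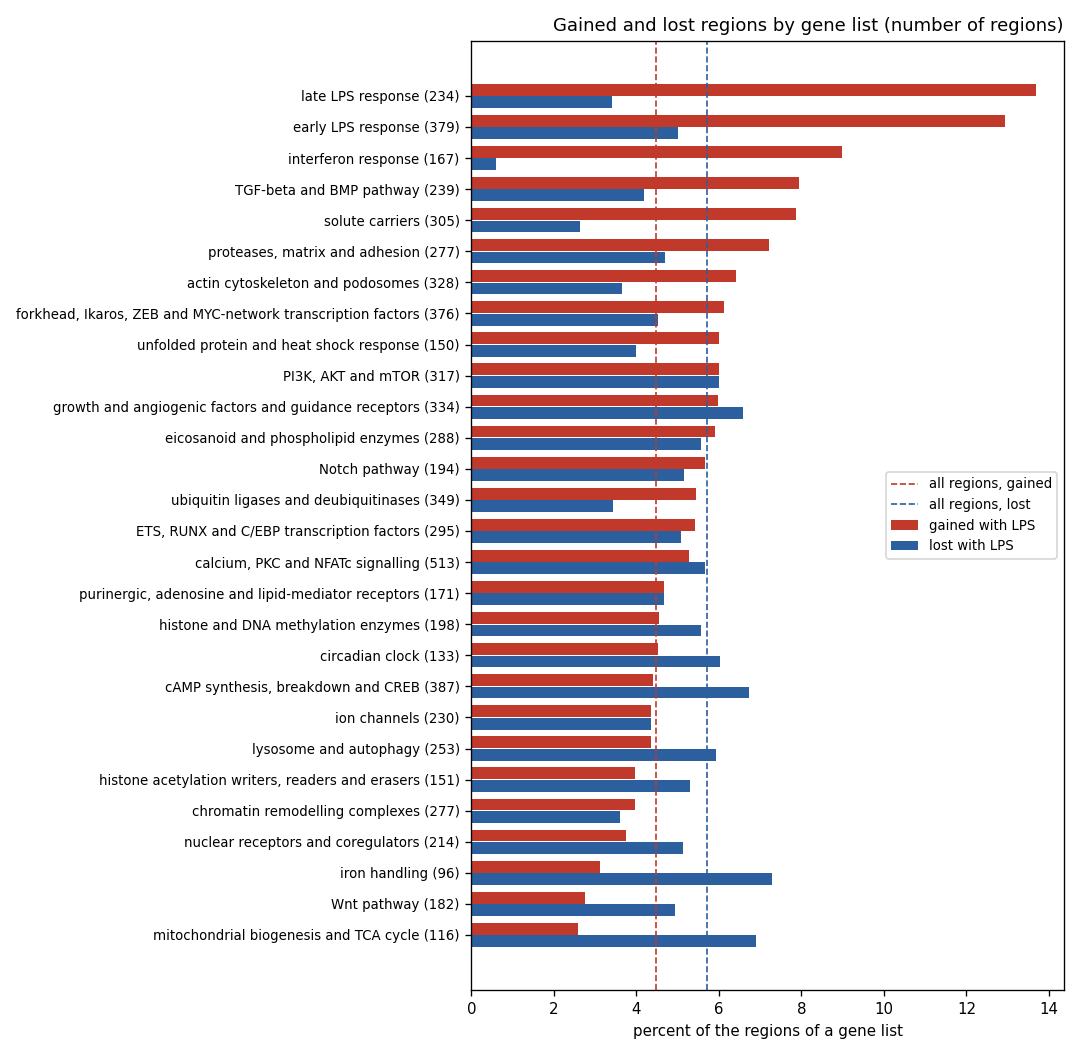
Percent of the regions nearest to the genes of each list that were gained (red) or lost (blue) with LPS in WT, for the known response lists and the pathway lists but not the cell type marker lists; the number of regions is in parentheses, and dashed lines mark all WT regions (4.47% gained, 5.71% lost). Of the lists drawn, the 3 known response lists have the largest gained shares; TGF-beta and BMP genes and solute carriers follow, and the mitochondrial list has the smallest. The lists were written with earlier results of these data known.

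In the 40765 regions called in all 4 WT lists the covered width was on the whole smaller with LPS. The median log2 change was −0.10, a ratio of 0.932. Both LPS widths were below both untreated widths in 14086 regions (34.6%) and above them in 5318 (13.0%). After subtracting each library's median, which sets this general shift aside, the counts were 7919 narrower and 11514 wider, so the split between directions depends on that choice. With limma on log2 covered bases and Benjamini-Hochberg adjustment, no region passed 0.05 in either direction (0.00%); at an unadjusted p under 0.05 there were 4395 narrower (10.8%) and 1342 wider (3.29%), and after centring 2632 narrower and 2666 wider. A fit of all 8 libraries, which shares the spread and takes the 36009 regions called in all of them, passed 17 narrower and 6 wider regions in WT.

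Regions over a listed start site had a median log2 change of −0.06, against −0.12 in gene bodies and −0.11 outside genes. At start sites the median widths were 759 and 776 bases with LPS, against 806 and 823 untreated, and in gene bodies away from starts 460 and 461 bases with LPS, against 511 and 510 untreated. The change also went with width over all regions: the median was −0.13 in regions under 250 bases on average, −0.17 at 250 to 400, −0.12 at 400 to 600, −0.09 at 600 to 800, −0.06 at 800 to 1000 and −0.05 over 1000 bases. The start-site and gene-body medians are thus close to those of all regions of like width. Mitochondrial and TCA genes had 47.8% of their 67 regions called in all 4 lists narrower and 2.99% wider, and after centring 29.9% narrower and 14.9% wider, against 19.4% and 28.2% of all regions after centring. Purinergic and lipid-mediator receptor genes stood at the other end of the pathway lists outside the known ones, with 24.7% of 97 regions wider and 32.0% narrower (38.1% and 21.6% after centring).

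The regions with the smallest p among the wider ones included genes of RNA binding, lipid metabolism and transcription, and their sizes were large although no adjusted p passed. In Igf2bp2, the gene of an RNA-binding protein, the width was 996 and 929 bases with LPS, against 246 and 244 untreated, a log2 change of 1.97 ± 0.14 (SE, limma adjusted p = 0.174). In Lpcat2, which encodes an enzyme of platelet-activating factor synthesis, it was 805 and 1003 bases with LPS, against 190 and 199 untreated. A region 39.2 kb from Tet2, the gene of a DNA demethylation enzyme, was 954 and 986 bases wide with LPS, against 310 and 337 untreated. The KO libraries had 509 and 348 bases there with LPS, against 320 and 328 untreated.

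At Zeb2, a zinc-finger transcription factor gene, a region across the start site (chromosome 2, 45113013 to 45114272) was 785 and 798 bases wide with LPS, against 212 and 183 untreated, while the KO libraries had 804 and 991 bases with LPS, against 971 and 1178 untreated. Cish, a cytokine-signalling inhibitor gene, had a start-site region of 1262 and 1231 bases with LPS, against 729 and 737 untreated. Prr5l, the gene of an mTORC2-binding protein, had one of 1515 and 1481 bases with LPS, against 846 and 836 untreated. Both were also wider with LPS in KO. The Zeb2 and Cish regions passed limma's fit of all libraries (adjusted p = 0.0473 for each), as did one 3.57 kb from Gadd45a, a stress-response gene, with 1164 and 878 bases with LPS, against 238 and 191 untreated.

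Among the narrower regions Sdhb, the gene of a subunit of succinate dehydrogenase, had the smallest p. Its region (chromosome 4, 140963030 to 140965017) covered 541 and 537 bases with LPS, against 1879 and 1665 untreated, a log2 change of −1.71 ± 0.09 (SE, limma adjusted p = 0.174), and in KO 518 and 773 bases with LPS, against 1508 and 1988 untreated. In Capzb, an actin-capping gene, the width was 157 and 163 bases with LPS, against 915 and 1027 untreated. The Capzb region passed limma's fit of all libraries (adjusted p = 0.0218).

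Start-site regions were narrower at Jdp2, an AP-1 repressor gene, with 742 and 732 bases with LPS, against 1640 and 1584 untreated, and at Ivns1abp, with 695 and 645 bases with LPS, against 1618 and 1564 untreated. The 8-library fit also passed narrower regions near Tkt, a gene of the pentose phosphate pathway, with 343 and 342 bases with LPS, against 923 and 980 untreated, and in Smad1, a BMP signal transducer gene, with 706 and 607 bases with LPS, against 1310 and 1363 untreated. One 10.6 kb from Adgre1, the F4/80 macrophage marker gene, was 429 and 375 bases wide with LPS, against 968 and 936 untreated. At Smad1 and Adgre1 the KO libraries moved alike, with 710 and 698 bases with LPS, against 1284 and 1335 untreated, and 494 and 432 bases with LPS, against 954 and 931 untreated.

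**Figure D4:**
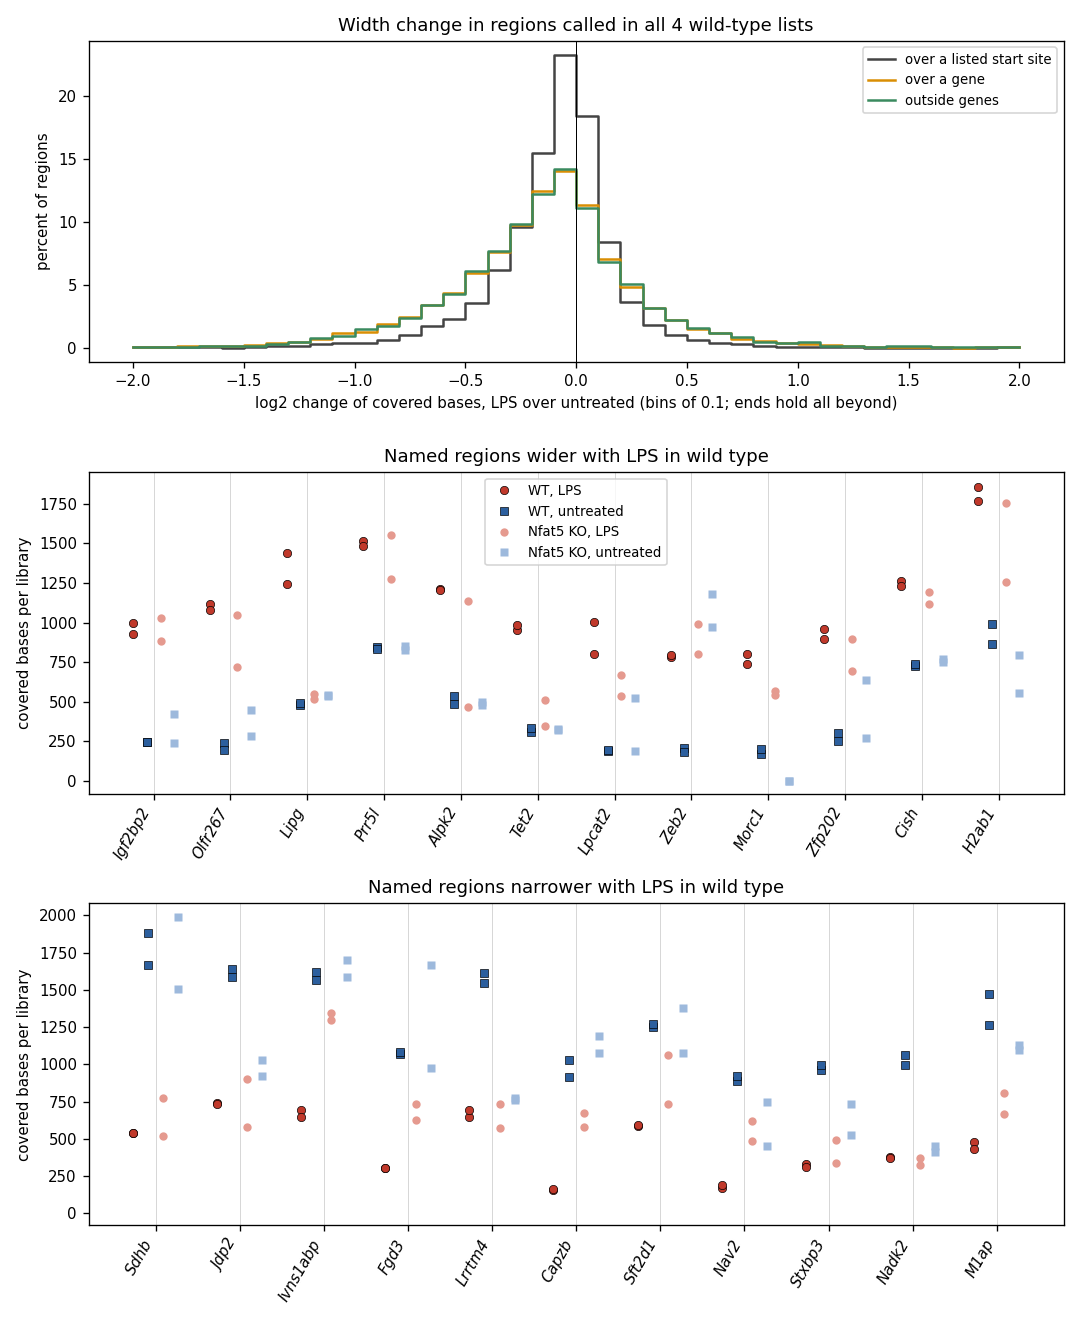
Top, distribution of the log2 change of covered bases with LPS over untreated in WT (horizontal axis) as percent of regions (vertical axis), for regions over a listed start site, over a gene and outside genes; all 3 lean below 0, with medians of −0.06, −0.12 and −0.11. Middle and bottom, covered bases per library in named wider and narrower regions, 1 gene per column; the WT groups do not overlap because the rule asked for this, and the paler KO points had no part in it.

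The KO libraries offer a look at the WT-chosen regions in samples whose calls did not choose them, although their peaks entered the merge. Of all WT regions, the 2 KO LPS libraries called 65.8% and 64.9%, and the 2 untreated KO libraries 68.1% and 70.3%. Of the 3454 gained regions, 55.8% and 48.9% were called in the 2 KO LPS libraries, against 12.1% and 14.8% in the 2 untreated KO libraries. Of the 4414 lost regions, 34.0% and 35.5% were called with LPS, against 63.4% and 70.5% untreated. The difference had the WT direction in both sets, with no overlap between the groups and an exact permutation p of 0.333, the smallest possible. By the same rule in KO, 959 of the gained regions (27.8%) were gained there, against 2.62% of all WT regions, and 27 were lost. Of the lost regions 810 (18.4%) were lost in KO, against 3.86% of all WT regions, and 21 were gained. No KO list called 998 of the gained and 640 of the lost regions.

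Widths leaned the same way in KO as in WT. Of the 4576 regions wider in WT and called in all 8 lists, 30.2% were wider with LPS in KO, against 10.3% of all 36009, and 17.7% were narrower. Of the 12661 narrower ones, 48.1% were narrower in KO, against 37.1% of all, and 4.41% were wider. Across the 36009 regions, which share the 8 libraries and are not replicates, the 2 log2 changes had a Pearson r of 0.383 and a Spearman rho of 0.339. The median log2 change in KO was −0.11.

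**Figure D5:**
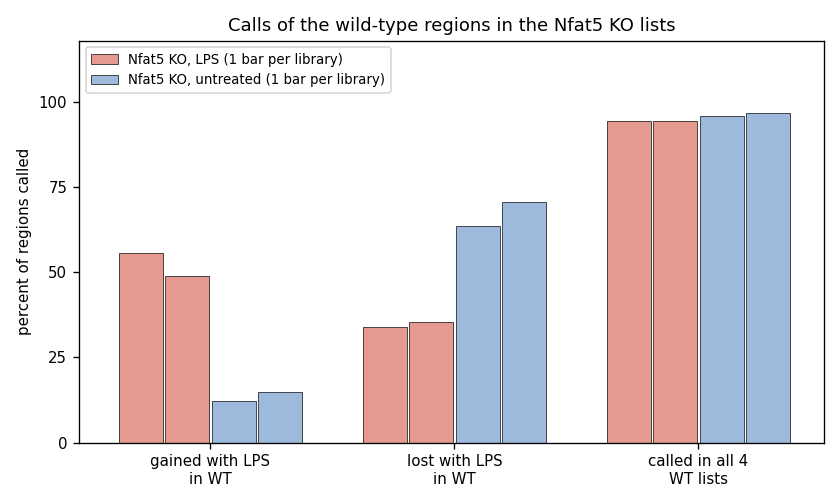
Percent of the regions gained with LPS in WT, lost with LPS in WT or called in all 4 WT lists (groups on the horizontal axis) that each Nfat5 KO library called, 1 bar per library, LPS libraries left. Gained regions are called at 55.8% and 48.9% with LPS and 12.1% and 14.8% untreated, and lost regions at 34.0% and 35.5% with LPS and 63.4% and 70.5% untreated. Over all WT regions (not drawn) the shares are 65.8% and 64.9% with LPS and 68.1% and 70.3% untreated.

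Many regions lay just outside the rule. Called in both LPS lists and 1 untreated list were 3204 regions, and in 1 LPS list alone 6749; called in both untreated lists and 1 LPS list were 5010, and in 1 untreated list alone 9870. The median WT peak was 269 bases wide in gained and 271 in lost regions, against 275 and 287 in the neighbouring classes with 3 calls and 524 in regions called in all 4 lists, so gained and lost regions as a whole lay among the narrow peaks. The 10th and 90th percentile of gained peaks were 173 and 520 bases.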

How the data were processed

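Bone marrow-derived macrophages of 4 groups, with 2 libraries each, were profiled by ATAC-seq. For each library the authors deposited 1 list of MACS2 peaks, whose only values are start and end positions on mm10 (GRCm38). The tools named in the submitters' processing notes are MACS2 2.1.1, Picard, Bowtie2 2.3.0 and bcl2fastq 2.17.1.14, without a role or settings. The lists hold no reads, heights or scores, so depth is unknown, no interval for counting reads can be given, and shallower libraries can yield fewer and narrower peaks.

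Peaks on the 21 main chromosomes were merged where they overlapped by at least 1 base. A region counted as called in a library with at least 1 overlapping peak. Regions went to the nearest protein-coding gene within 100 kb, and start sites and sequences came from RefSeq GRCm38.p6, which lists a start for 17492 of 21887 genes. Width is the bases of a region covered by a library's peaks. LPS was compared with no treatment by limma 3.58.1 (R 4.3.3, with a variance trend) on log2 covered bases with Benjamini-Hochberg adjustment at 0.05. The fit was also run on simulated data. There, recovery of changed regions was required only at a set standard deviation of 0.05, not at the spread of these data. Library values were compared by two-sided exact permutation tests (Python 3.11.15, scipy 1.17.1). Intervals of shares are exact binomial at 95% and cover counting error only.

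The members and the 39 gene lists (1131 entries, 4 without a match) were chosen with earlier results of these data known. Genes are named by a rule: per direction the 12 widest-ranked regions within 10 kb of a gene, the 8 widest-ranked within 1 kb of a start, the 8 genes with most regions in 1 direction and none in the other, the 12 width regions of smallest p, up to 4 genes per list, and 6 known LPS genes; some named genes and 1 list are not reported here, and known LPS genes were left out of the ranked sets. Because no width passed the adjusted threshold, the width regions were ranked by p. MicroRNAs, printed promoters and regions from the fit of all 8 libraries were chosen after their values were seen. Alternatives covered left-out libraries, list length, stricter lists, overlap, merging, centring, the measure of width, narrow regions, the replicate number as a block and the distance to genes.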

Additional observations from a re-analysis of the deposited data

Results flagged for a closer look

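Of the 17 narrower and 6 wider regions that passed the fit of all 8 libraries, 2 had widths that moved in opposite directions in the 2 genotypes. In both, LPS and untreated libraries did not overlap in either genotype. Such opposite movement was not limited to these 2. Over all 36009 regions called in the 8 lists, 809 wider in WT were narrower in KO without overlap, and 558 narrower in WT were wider in KO. A region in Tnfrsf26, a TNF receptor family gene, on chromosome 7 (143624625 to 143625427) covered 773 and 706 bases with LPS, against 261 and 270 untreated, in WT. In KO it covered 243 and 260 bases with LPS, against 743 and 748 untreated. The log2 change was 1.48 in WT and −1.57 in KO. A region on chromosome 9 (120690973 to 120691930), with no coding gene within 100 kb, covered 438 and 399 bases with LPS, against 910 and 865 untreated, in WT, and 958 and 906 bases with LPS, against 665 and 652 untreated, in KO. The log2 change was −1.09 in WT and 0.50 in KO. The difference between the genotypes was not tested in either region.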

How the results depend on the processing

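The counts of gained and lost regions depended on how lists were made comparable. There were 3454 gained and 4414 lost; lists cut to the 27753 widest peaks gave 2013 and 1738, and lists cut to an equal 55506 peaks gave 3899 and 3384, so that gained regions then outnumbered lost ones. The 12 widest regions named in each direction, and the 8 gained and 7 further lost ones at start sites, kept their calls in both. A call that needed 50% of the region covered gave 3825 and 6315, and kept 10 of the 12 widest regions in each direction. Leaving out 1 library gave 4886 (untreated 1), 5226 (untreated 2), 6147 (LPS 1) and 7510 (LPS 2) gained regions, and 8788, 9910, 7164 and 6674 lost ones in the same order, since 1 list then decides. The median log2 width change was −0.10; it was 0.026 after centring each library on its median, −0.087 for regions of at least 400 bases on average, and −0.11 to −0.087 with a library left out. After centring, 11514 regions were wider and 7919 narrower without overlap, and 2666 and 2632 at an unadjusted p under 0.05. With a library left out, 9260 to 10096 were wider without overlap, since fewer values must be apart. At an adjusted p under 0.05 limma called 0 regions in each setting except the fit of all 8 libraries, with 6 wider and 17 narrower. Among peaks of at least 300 bases the mean number per list differed by −4510.5 (LPS minus untreated), against −3069 over all peaks, and the median width by −11.5 bases, against −27. The replicate numbers are shared across treatments. The deviations of same-numbered libraries correlated at 0.0462 in width, and the main fit did not pair them. Whether same-numbered libraries share an animal or a batch cannot be told from these values. With the number as a block limma called 0 regions at an adjusted p under 0.05. At an unadjusted p under 0.05 it gave 1249 wider and 4198 narrower. Regions called in both libraries numbered 1 and in neither numbered 2 were 1195, and the reverse 1026, against 807 and 778 for crossed numbers, which is a hint from the data, not from the design. Assigning regions to genes within 25 kb moved 1 of 78 list shares outside its 95% interval. For the other results and settings run, including those of KO libraries left out, the direction and the side of the threshold did not change, except that 8 named width regions passed in the fit of all 8 libraries.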

Other observations

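Gene groups not described above had calls in both directions. Over all WT regions 4.47% were gained and 5.71% lost, and whether any of these groups differs from that was not tested. Calcium, PKC and NFATc signalling genes had 27 gained (5.26%) and 29 lost (5.65%) of 513 regions. Among them Itpr2, an inositol trisphosphate receptor gene, had 531 and 554 bases with LPS, against 0 and 0 untreated. Its relative Itpr1 had 0 and 0 bases with LPS, against 704 and 713 untreated. PI3K, AKT and mTOR genes had 19 gained (5.99%) and 19 lost (5.99%) of 317 regions. A region 26.3 kb from Pik3cg, the gene of the PI3K gamma subunit, had 485 and 440 bases with LPS, against 0 and 0 untreated, while Pik3cd, the delta subunit gene, had 0 and 0 bases with LPS, against 410 and 357 untreated. Both Itpr2 and Pik3cg had calls in both KO LPS libraries and in no untreated KO library.

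Growth factor and guidance receptor genes had 20 gained (5.99%) and 22 lost (6.59%) of 334 regions, with Nrp2, a semaphorin and VEGF coreceptor gene, in both directions. The gained Nrp2 region covered 452 and 474 bases with LPS, against 0 and 0 untreated, and the lost one 0 and 0 bases with LPS, against 547 and 641 untreated. Eicosanoid and phospholipid enzyme genes had 17 gained (5.90%) and 16 lost (5.56%) of 288 regions. A region 35.8 kb from Plpp3, a lipid phosphatase gene, had 747 and 704 bases with LPS, against 0 and 0 untreated. Alox5, the 5-lipoxygenase gene, had 0 and 0 bases with LPS, against 514 and 175 untreated. Ubiquitin ligase and deubiquitinase genes had 19 gained (5.44%) and 12 lost (3.44%) of 349 regions. Fbxw7, the gene of a substrate receptor of a ubiquitin ligase, had 0 and 0 bases with LPS, against 433 and 979 untreated, and was lost in KO as well, with 0 and 0 bases with LPS, against 817 and 1031 untreated.

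Chromatin remodelling genes had 11 gained and 10 lost of 277 regions, nuclear receptor and coregulator genes 8 and 11 of 214, Notch genes 11 and 10 of 194, ion channel genes 10 and 10 of 230, unfolded protein and heat shock genes 9 and 6 of 150, and circadian clock genes 6 and 8 of 133. Among the clock genes Arntl, Bhlhe40 and Bhlhe41 each had 1 named region in each direction. Nr3c1, the glucocorticoid receptor gene, had a gained region of 387 and 562 bases with LPS, against 0 and 0 untreated.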
